A study of Mus musculus with 9 samples.

Results

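The genes of cholesterol synthesis and of its control by the sterol regulatory element-binding proteins (SREBP) were followed in macrophages of 3 genotypes. The 32 genes were taken by symbol from textbook knowledge of the pathway. The choice was made with earlier results of these data known, so the shares of all genes beside their counts describe and do not test them. All 32 were among the 29763 named genes of the table, and all 32 passed the filter on low values that left 11133 genes for testing. They comprise 18 enzymes that lead from acetyl-CoA to cholesterol, the enzyme Ggps1 of the geranylgeranyl branch and 7 genes of the SREBP proteins and their control. The others are 2 genes of sterol transport and 4 genes that supply acetyl-CoA or build fatty acids. The cells were bone marrow-derived macrophages, primary cells grown from mouse marrow, and their polyadenylated RNA was sequenced. They had been kept for 7 days in medium with 30% supernatant of L929 cells, a fibroblast line that secretes macrophage colony-stimulating factor. Each genotype had 3 libraries: wild type, a knockout of Ndufa4l3-miR147 (also called Nmes1, listed as AA467197) and a knockout of Ndufa4. The cells of every group, wild type included, had received interferon-gamma at 40 ng/ml for 12 h, so no value here describes the response to interferon itself. The series concerns how the make-up of mitochondrial complex IV, to which the proteins of Ndufa4 and Ndufa4l3 belong, bears on interferon signalling. The labels give neither the construction of the alleles nor the number of mice and call the replicates technical, so p-values measure only the spread between libraries.

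Cholesterol is built from acetyl-CoA in a long chain of reactions in the cytosol and endoplasmic reticulum, by way of mevalonate, farnesyl diphosphate, squalene and lanosterol. The SREBP transcription factors, encoded by Srebf1 and Srebf2, are made as membrane proteins that Scap escorts to the Golgi, where the proteases of Mbtps1 and Mbtps2 release them. When sterols are abundant, the Insig proteins hold Scap in the endoplasmic reticulum and transcription of the pathway falls. In macrophages interferons are known to act on this pathway, among other ways through Ch25h, whose oxysterol product blocks SREBP processing.

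Values are TPM, a share of the library corrected for transcript length. Differences are log2 differences on log2(TPM + 1) with their standard error (SE, n = 3 libraries per group). A gene was called when limma's two-sided test gave an adjusted p under 0.05, with Benjamini-Hochberg adjustment over the 11133 genes. AA467197 was at 365, 358 and 355 TPM in the wild-type libraries and at 2.90, 2.21 and 4.50 TPM in its knockout, which matches its label. Ndufa4 was at 0 to 0.621 TPM in every library of every genotype, so its level checks no label. Ndufa4 knockout replicate 3 stood apart: its upper-quartile TPM was 7.79, against 9.24 to 9.84 in the other libraries. Across genes, its Spearman correlation between transcript length and the difference from the mean of its group's other libraries was -0.407, against 0.282 and 0.299 in the other Ndufa4 knockout libraries. All 8 macrophage markers passed the filter, with summed TPM of 9236 to 9371 in wild type, 8826 to 9019 in the Ndufa4l3-miR147 knockout and 9757 to 10219.8 in the Ndufa4 knockout. The sums came mostly from Lyz2 and Cd68 and hide opposite directions in both knockouts. In the Ndufa4 knockout Lyz2 was at 5223 to 5675 TPM, against 4509 to 4660 TPM in wild type. Cd14 was at 81.9 to 88.1 TPM, against 149 to 160 TPM, and Mertk at 12.2 to 18.6 TPM, against 22.0 to 23.8 TPM. Fcgr1 also lay below wild type, and the other markers overlapped it. In the Ndufa4l3-miR147 knockout Lyz2 was at 4041 to 4172 TPM, Cd14 at 122 to 135 TPM and Mertk at 20.6 to 21.8 TPM, all below wild type. Cd68 was at 2462 to 2520 TPM there, against 2317 to 2354 TPM in wild type. Fcgr1 and Itgam also lay above wild type in that knockout, Emr1 lay just below it and Csf1r overlapped it. None of 8 T and NK cell markers and none of 6 B cell markers passed the filter, and Trac and Nkg7 were listed at 0 throughout. Of the neutrophil markers 5 of 8 passed, with sums of 3.83 to 73.0, 33.5 to 65.2 and 1.47 to 34.3 TPM in the same order of groups, and Ly6g at no more than 0.515 TPM. Of the stromal markers 4 of 7 passed, with sums of 7.40 to 44.8, 37.1 to 45.7 and 6.48 to 130.7 TPM, the last in Ndufa4 knockout replicate 3. Of the dendritic cell markers 2 of 6 passed, with sums of 27.7 to 29.6, 30.0 to 35.3 and 40.8 to 76.6 TPM, nearly all from Clec9a. Of the erythroid and mast cell markers 2 of 6 passed, with sums of 10.5 to 147.6, 23.9 to 83.9 and 11.9 to 42.5 TPM. The part of these cells in the results was not tested, and in bulk RNA fewer cells of a type and less RNA per cell cannot be told apart.

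In the Ndufa4 knockout, 16 of the 32 genes were lower than in wild type and 0 were higher, among them 12 of the 18 cholesterol enzymes, both SREBP genes, Insig1 and Stard4. The background was 5.76% of all genes called lower and 2.83% called higher. At an unadjusted p under 0.05 limma gave 22 of the 32 lower and 0 higher, beside 2014 and 891 of all 11133 genes. The 32 genes had a median log2 difference of -0.43, beside -0.08 over all genes, and their median level was 73.2% of the wild-type mean. All 3 Ndufa4 knockout libraries lay below all 3 wild-type libraries for 25 of the 32, beside 21.7% of all genes. In the Ndufa4l3-miR147 knockout limma called 0 of the 32 lower and 0 higher, beside a background of 0.189% and 0.243%. Its unadjusted p was under 0.05 for 14 of the 32 on the lower side and for 0 on the higher side, beside 454 and 463 of all 11133 genes. The median log2 difference of the 32 was -0.25, beside 0.00 over all genes, and for 18 of them all 3 libraries lay below wild type, beside 12.0% of all genes. Both comparisons share the wild-type libraries, so a low or high wild-type value moves both alike.

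The summed TPM of the 18 cholesterol enzymes was 583, 576 and 574 TPM in the wild-type libraries, 497, 448 and 454 TPM in Ndufa4l3-miR147 knockout cells and 411, 399.7 and 411 TPM in the Ndufa4 knockout. The libraries of the 3 genotypes did not overlap, with the Ndufa4l3-miR147 knockout between the others. The median of the 32 log2 differences from the wild-type mean was -0.16, -0.28 and -0.24 in the libraries of the Ndufa4l3-miR147 knockout and -0.41, -0.38 and -0.60 in those of the Ndufa4 knockout. The lowest of these belongs to Ndufa4 knockout replicate 3, in which the median of all genes was also lowest, at -0.14. Without that library 18 of the 32 were lower in the Ndufa4 knockout, with a median of -0.39, beside 8.70% of all genes lower. The count was also the most sensitive to wild-type libraries: it was 9 without wild-type replicate 1 and 10 without replicate 3. Calls over all genes also fell there, to 1.51% and 1.72% lower, against 5.76% with all libraries. The median of the 32 was -0.43 and -0.45 in these fits. Another scaling moved the split of calls over all genes: 32.9% of all genes called in the Ndufa4 knockout were higher as deposited and 52.1% after median-of-ratios scaling, which left 14 of the 32 lower and 0 higher.

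**Figure D1:**
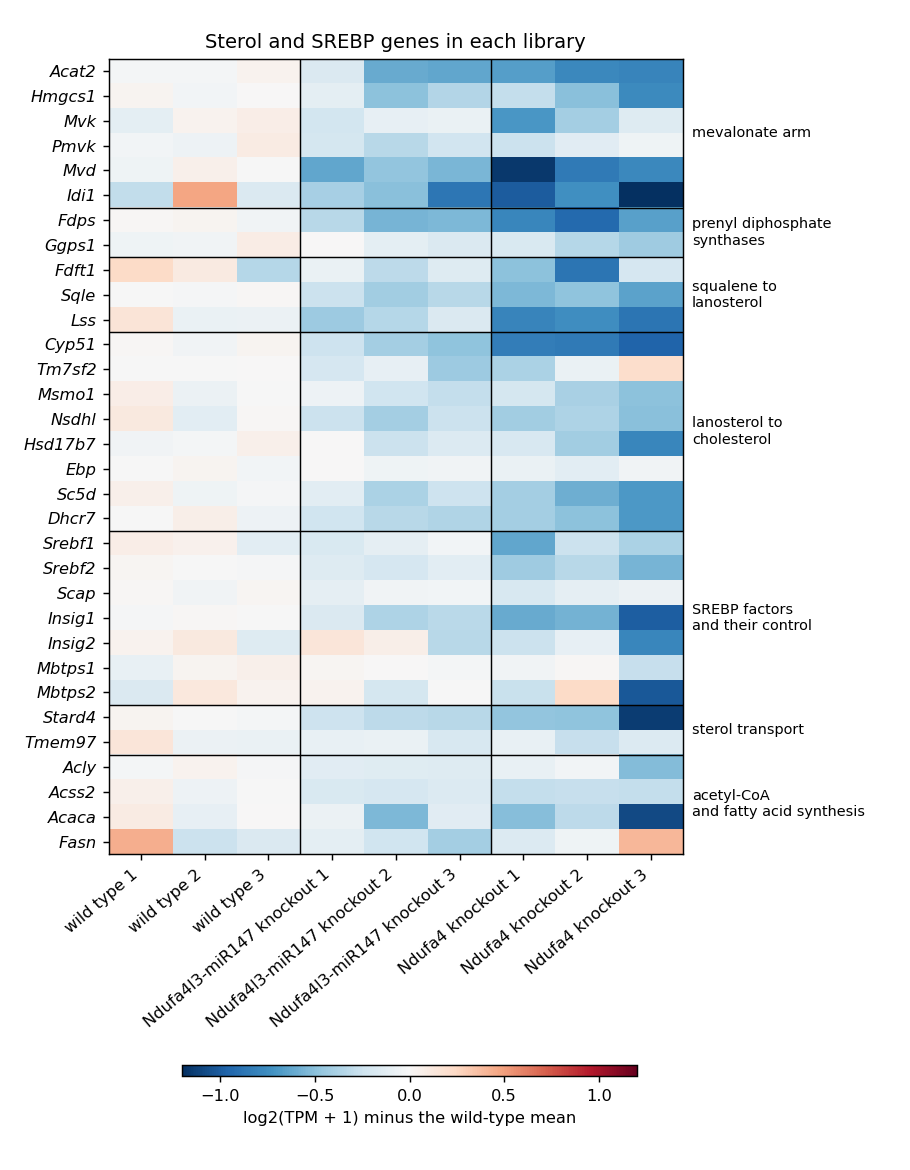
Heat map of 32 genes (rows, ordered by role) in 9 libraries (columns), with log2(TPM + 1) minus the wild-type mean in colour, blue for lower and red for higher. The columns of the Ndufa4 knockout are the darkest blue, with library medians of -0.41, -0.38 and -0.60, and those of the Ndufa4l3-miR147 knockout are paler, with medians of -0.16, -0.28 and -0.24.

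Promoter windows were searched for set letters of the pathway's usual factor motifs near the start of these genes. RefSeq windows of 300 bases on GRCm38.p6, from 250 bases before to 50 after an annotated start, were matched by symbol for 28 of the 32 genes; none was matched for Fdps, Fdft1, Sqle and Stard4. The letters searched on both strands were CCAAT, the box bound by the factor NF-Y that works beside SREBP, and TCACNCCAC, a form of the sterol regulatory element. The shorter TCACNCCA, which every match of the longer motif contains, was added after the windows were seen. CCAAT stood in a window of 23 of the 28 genes (82.1%), against 43.6% of the 8272 tested genes with a window and 41.1% of all 27025 genes with one. Of the genes lower in the Ndufa4 knockout 12 of 13 (92.3%) held it, and of those not called 11 of 15 (73.3%). Of the 49 CCAAT matches, 29 were centred within 100 bases before the start. TCACNCCAC was found for Hmgcs1 alone among the 28, against 1.37% of the tested genes, and TCACNCCA for Hmgcs1, Msmo1 and Srebf2, against 4.56%. A match is a description of letters and not a bound site. A missing match does not show that a gene lacks a sterol element, as only these letters in these windows were searched. The bases before the start are shown for 6 genes, chosen only among called genes whose window holds CCAAT or TCACNCCAC. Among these genes they had calls in the most comparisons and, at equal number, the smallest adjusted p. Each sequence shown therefore holds a match by choice. Hmgcs1 was added after the windows were seen because it holds the longer motif. The sequences are read 5′ to 3′ on the strand of the gene, and capitals mark CCAAT, its reverse complement ATTGG, or the sterol element.
Cyp51 (chr5:4104698-4104947, minus strand): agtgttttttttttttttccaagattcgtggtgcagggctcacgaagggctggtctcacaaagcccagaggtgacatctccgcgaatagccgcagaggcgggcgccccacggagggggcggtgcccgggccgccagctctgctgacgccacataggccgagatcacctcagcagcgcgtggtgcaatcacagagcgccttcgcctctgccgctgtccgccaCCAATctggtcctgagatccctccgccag
Lss (chr10:76531355-76531604, plus strand): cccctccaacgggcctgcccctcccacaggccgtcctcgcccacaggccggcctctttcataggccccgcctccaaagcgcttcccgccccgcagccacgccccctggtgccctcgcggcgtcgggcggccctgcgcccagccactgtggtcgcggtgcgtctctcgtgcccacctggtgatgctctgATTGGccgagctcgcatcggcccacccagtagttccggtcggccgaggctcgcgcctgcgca
Mvd (chr8:122443423-122443672, minus strand): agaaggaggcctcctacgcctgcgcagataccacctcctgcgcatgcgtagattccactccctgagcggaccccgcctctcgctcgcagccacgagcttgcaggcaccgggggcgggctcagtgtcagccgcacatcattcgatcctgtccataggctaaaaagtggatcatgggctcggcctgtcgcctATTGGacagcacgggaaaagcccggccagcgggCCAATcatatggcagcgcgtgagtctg
Srebf2 (chr15:82147019-82147268, plus strand): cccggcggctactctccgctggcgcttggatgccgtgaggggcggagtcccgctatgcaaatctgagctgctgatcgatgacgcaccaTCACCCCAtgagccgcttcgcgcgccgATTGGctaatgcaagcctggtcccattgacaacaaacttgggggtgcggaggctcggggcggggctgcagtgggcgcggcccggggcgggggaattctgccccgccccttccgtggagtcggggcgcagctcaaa
Insig1 (chr5:28071162-28071411, plus strand): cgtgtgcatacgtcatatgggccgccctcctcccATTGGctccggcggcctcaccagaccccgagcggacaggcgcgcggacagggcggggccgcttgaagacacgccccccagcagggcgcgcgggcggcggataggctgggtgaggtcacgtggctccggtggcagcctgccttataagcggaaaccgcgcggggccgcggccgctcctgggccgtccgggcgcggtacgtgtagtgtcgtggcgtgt
Dhcr7 (chr7:143829964-143830213, plus strand): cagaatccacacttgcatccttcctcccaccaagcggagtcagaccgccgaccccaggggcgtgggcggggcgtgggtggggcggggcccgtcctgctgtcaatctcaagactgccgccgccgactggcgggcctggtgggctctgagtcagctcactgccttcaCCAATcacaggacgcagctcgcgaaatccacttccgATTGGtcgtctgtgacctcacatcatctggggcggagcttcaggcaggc
Hmgcs1 (chr13:119690101-119690350, plus strand): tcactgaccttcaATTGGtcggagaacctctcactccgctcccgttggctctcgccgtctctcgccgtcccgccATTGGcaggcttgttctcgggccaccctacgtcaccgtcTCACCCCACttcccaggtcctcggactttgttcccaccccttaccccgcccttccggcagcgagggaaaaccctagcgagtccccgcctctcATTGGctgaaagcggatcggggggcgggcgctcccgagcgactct
In Cyp51 the CCAAT box lies 29 to 25 bases before the start, and in Lss a box on the opposite strand lies 62 to 58 bases before it. Mvd and Dhcr7 each hold boxes on both strands. Dhcr7 had 3 windows, and the one shown was picked for its matches and is the only one with a box. That window lies inside the gene, whose annotated first base is at chr7:143823145. Insig1 holds its box far upstream, from 216 to 212 bases before the start. In Srebf2 the letters TCACCCCA, from 162 to 155 bases before the start, stand near a box on the opposite strand from 135 to 131 bases before it. In Hmgcs1 the letters TCACCCCAC lie 137 to 129 bases before the start, among 3 of its boxes, and its remaining box lies after the start and is not printed.

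**Figure D2:**
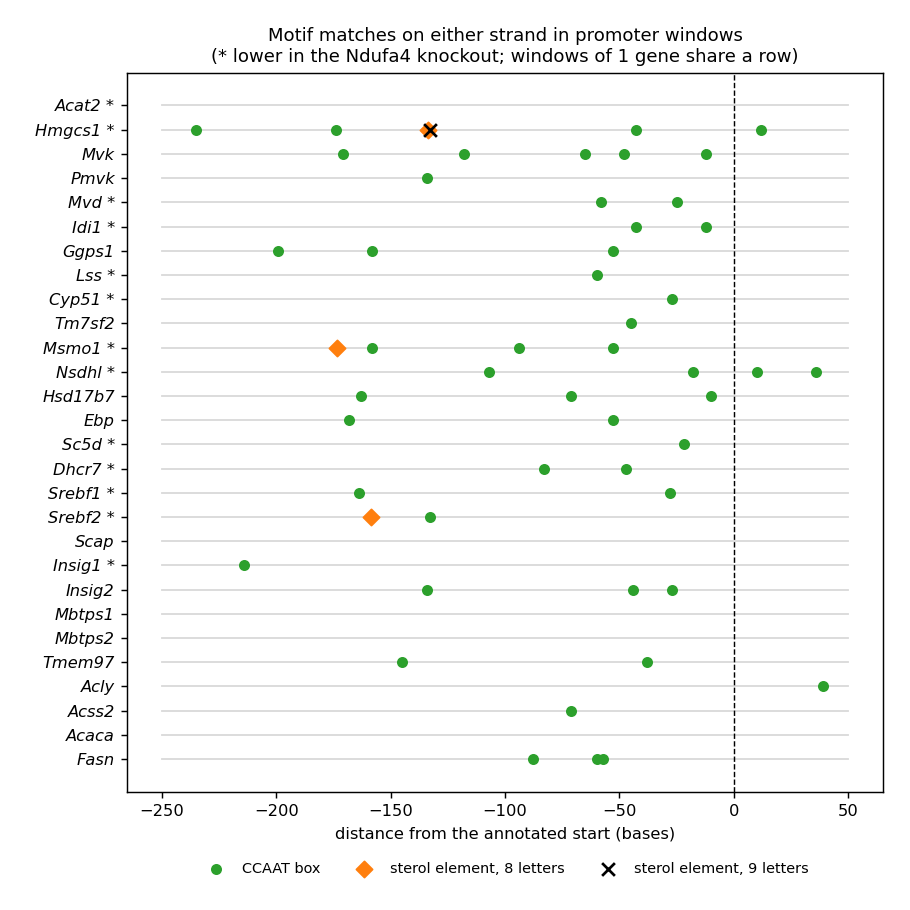
Positions of motif matches on either strand (x axis, distance of the match centre from the annotated start in bases) in the promoter windows of 28 genes (rows; all windows of a gene share a row, and asterisks mark genes lower in the Ndufa4 knockout). Circles mark CCAAT, present for 23 of the 28 genes and mostly within 100 bases before the start, diamonds the 8-letter and crosses the 9-letter sterol element, the latter in Hmgcs1 alone.

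Of the 6 genes of the mevalonate arm, Acat2, Hmgcs1, Mvd and Idi1 were lower in the Ndufa4 knockout, while Mvk and Pmvk were not called. The arm's median log2 difference was -0.63, and -0.39 in the Ndufa4l3-miR147 knockout. Mvd encodes the decarboxylase that makes isopentenyl diphosphate. It was at 17.0, 18.4 and 17.6 TPM in wild type, 11.1, 12.5 and 11.7 TPM in Ndufa4l3-miR147 knockout cells and 7.38, 9.40 and 9.93 TPM in the Ndufa4 knockout, in 3 groups that did not overlap. It fell in the Ndufa4 knockout by 0.92 on the log2 scale (SE 0.11, limma adjusted p = 0.0019), next in size to that of Idi1. In the Ndufa4l3-miR147 knockout the difference was -0.55 ± 0.11, which missed the threshold (adjusted p = 0.089). Acat2, the thiolase that starts the chain by joining acetyl-CoA units, was at 16.4, 16.4 and 17.3 TPM in wild type, 14.7, 10.6 and 10.4 TPM in Ndufa4l3-miR147 knockout cells and 10.2, 9.36 and 9.24 TPM in the Ndufa4 knockout. Within the Ndufa4l3-miR147 knockout its replicate 1 lay near wild type and replicates 2 and 3 near the Ndufa4 knockout. The difference was -0.74 ± 0.12 (adjusted p = 0.0088) in the Ndufa4 knockout and -0.47 ± 0.12 (adjusted p = 0.22) in the other.

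Hmgcs1, the synthase that makes HMG-CoA and whose window holds the sterol element, was at 25.4, 24.3 and 25.0 TPM in wild type, 22.9, 17.4 and 19.3 TPM in Ndufa4l3-miR147 knockout cells and 20.2, 17.3 and 14.2 TPM in the Ndufa4 knockout. Both knockouts lay below wild type in every library and overlapped each other. The fall in the Ndufa4 knockout was called (log2 difference -0.52 ± 0.13, limma adjusted p = 0.042). It was not called without wild-type replicates 1, 2 or 3 (adjusted p = 0.13, 0.11 and 0.13), nor without replicates 2 or 3 of the Ndufa4l3-miR147 knockout or replicate 2 of the Ndufa4 knockout (0.055 to 0.073). Its adjusted p over 20 alternatives was 0.0027 to 0.13. Idi1, the isomerase of isopentenyl diphosphate, was at 5.17, 9.51 and 5.70 TPM in wild type, with replicate 2 well above the others, 4.74, 4.35 and 3.14 TPM in Ndufa4l3-miR147 knockout cells and 2.80, 3.55 and 1.96 TPM in the Ndufa4 knockout. Its difference of -1.03 ± 0.24 in the Ndufa4 knockout was the largest of the 32 genes and had the second largest SE (adjusted p = 0.031). Without wild-type replicate 2 it was -0.79 (adjusted p = 0.098), the highest adjusted p over its 20 alternatives, the lowest being 0.015. Its call was also lost when 1 of 4 other libraries was left out, with adjusted p of 0.053 to 0.073: wild-type replicates 1 and 3, replicate 2 of the Ndufa4l3-miR147 knockout and replicate 1 of the Ndufa4 knockout. Mvk, the first kinase of the arm, was at 22.5, 25.4 and 25.9 TPM in wild type and 14.8, 18.3 and 21.9 TPM in the Ndufa4 knockout, below wild type but widely spread (difference -0.42 ± 0.13, adjusted p = 0.076). Without Ndufa4 knockout replicate 3 the difference of Mvk was -0.55 and was called (adjusted p = 0.010, and 0.24 at most over its alternatives). Pmvk, the kinase after it, was at 49.1, 48.0 and 53.6 TPM in wild type, 43.2, 39.6 and 42.5 TPM in Ndufa4l3-miR147 knockout cells and 41.9, 45.5 and 48.3 TPM in the Ndufa4 knockout, and was not called. It was among the 3 genes of the 32 with a lower mean in the Ndufa4l3-miR147 than in the Ndufa4 knockout, with Tm7sf2 and Fasn.

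Farnesyl diphosphate stands at the branch between sterols and prenylated proteins. Fdps, which makes it, had the highest level of the 32 genes, at 132, 133 and 126 TPM in wild type, 103, 88.2 and 89.4 TPM in Ndufa4l3-miR147 knockout cells and 75.4, 67.7 and 82.8 TPM in the Ndufa4 knockout, in 3 groups that did not overlap. It fell in the Ndufa4 knockout (log2 difference -0.79 ± 0.08, limma adjusted p = 0.0013). In the Ndufa4l3-miR147 knockout Fdps came nearest to the threshold of the 32, with a difference of -0.48 ± 0.08 and an adjusted p of 0.06. Ggps1, which makes geranylgeranyl diphosphate for the prenylation of small GTPases, was at 8.08, 8.19 and 9.06 TPM in wild type, 8.45, 7.69 and 7.35 TPM in Ndufa4l3-miR147 knockout cells and 7.30, 6.42 and 6.03 TPM in the Ndufa4 knockout. It was not called in the Ndufa4 knockout (difference -0.32 ± 0.10, adjusted p = 0.077), although it was without Ndufa4 knockout replicate 1 (-0.39, adjusted p = 0.047, and 0.24 at most over its alternatives).

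From farnesyl diphosphate to lanosterol, Sqle and Lss were lower in the Ndufa4 knockout and Fdft1 was not called. Sqle encodes squalene epoxidase, an oxygen-dependent and rate-limiting enzyme. It was at 37.6, 37.3 and 38.1 TPM in wild type, 31.3, 27.9 and 29.6 TPM in Ndufa4l3-miR147 knockout cells and 25.7, 26.6 and 23.8 TPM in the Ndufa4 knockout, with no overlap between any of the groups. Its differences were -0.55 ± 0.07 (limma adjusted p = 0.0022) in the Ndufa4 knockout, a fall, and -0.34 ± 0.07 (adjusted p = 0.089) in the Ndufa4l3-miR147 knockout. Lss, which closes the rings of lanosterol, was at 15.1, 12.6 and 12.8 TPM in wild type, 9.66, 10.4 and 11.8 TPM in Ndufa4l3-miR147 knockout cells and 7.32, 7.63 and 6.89 TPM in the Ndufa4 knockout. Again the groups were separate, though wild-type replicates 2 and 3 lay close to Ndufa4l3-miR147 knockout replicate 3. Lss fell in the Ndufa4 knockout (difference -0.80 ± 0.10, adjusted p = 0.0027) and had a difference of -0.32 ± 0.10 in the other knockout (adjusted p = 0.36). Fdft1, squalene synthase, had the lowest wild-type level of the 32 genes, at 5.93, 5.37 and 3.66 TPM, and overlapped at 4.60, 3.76 and 4.31 TPM in Ndufa4l3-miR147 knockout cells and 3.21, 2.21 and 4.12 TPM in the Ndufa4 knockout. Its difference of -0.52 ± 0.20 in the Ndufa4 knockout was not called (adjusted p = 0.14), but was -0.68 and called without Ndufa4 knockout replicate 3 (adjusted p = 0.048, and 0.34 at most over its alternatives).

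**Figure D3:**
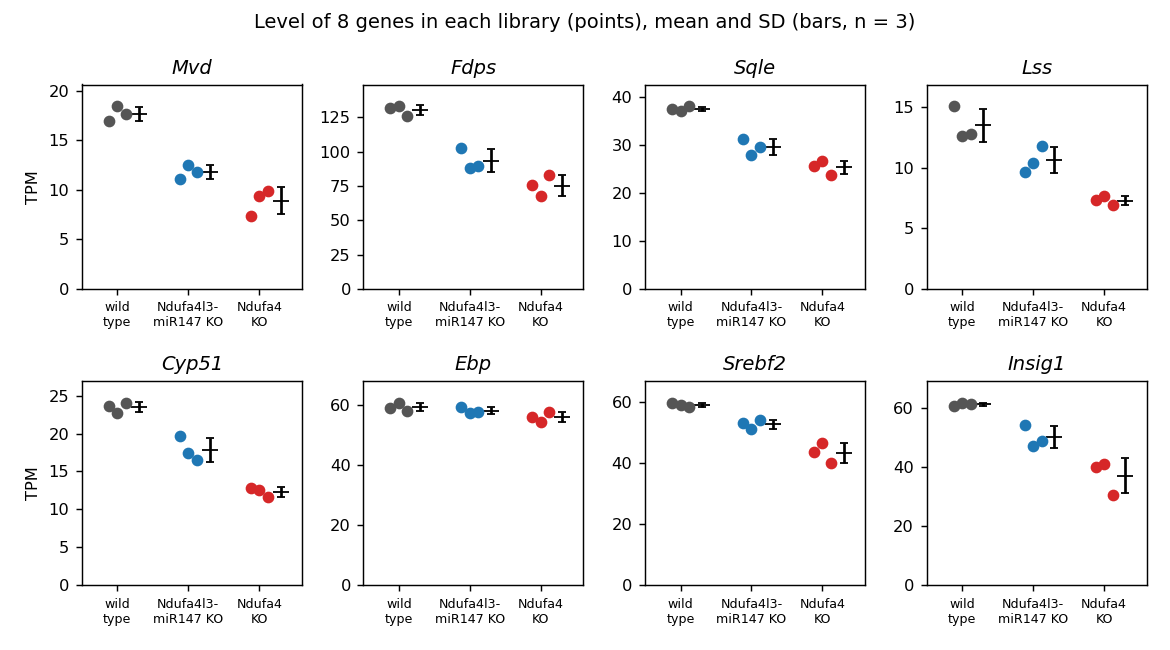
TPM (y axis, from 0) of 8 genes in each library (points) of wild type, the Ndufa4l3-miR147 knockout and the Ndufa4 knockout (x axis), with the mean and SD of each group of 3 libraries as a bar. The 8 genes are examples and do not stand for the whole pathway. Mvd, Fdps, Sqle, Lss, Cyp51, Srebf2 and Insig1 form 3 steps with no overlap between groups, and Ebp stays between 54.3 and 60.9 TPM in all libraries. Of the pathway genes not shown, Acat2, Sc5d, Dhcr7, Stard4 and Acss2 also form 3 steps. The others overlap between groups, among them Hmgcs1, Idi1, Msmo1, Nsdhl and Srebf1, which were called lower in the Ndufa4 knockout. The share of all genes that form 3 steps was not counted.

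Of the 8 enzymes between lanosterol and cholesterol, Cyp51, Msmo1, Nsdhl, Sc5d and Dhcr7 were lower in the Ndufa4 knockout, and Tm7sf2, Hsd17b7 and Ebp were not called. Cyp51, the demethylase that opens this stretch, gave the smallest adjusted p of the 32 genes. It was at 23.6, 22.7 and 24.1 TPM in wild type, 19.6, 17.4 and 16.5 TPM in Ndufa4l3-miR147 knockout cells and 12.8, 12.6 and 11.6 TPM in the Ndufa4 knockout, where every library lay below every library of both other groups. Cyp51 fell in the Ndufa4 knockout (log2 difference -0.88 ± 0.08, limma adjusted p = 0.00087), and its difference in the Ndufa4l3-miR147 knockout was -0.38 ± 0.08 (adjusted p = 0.13). Dhcr7, the reductase of the last step to cholesterol, was at 26.1, 27.4 and 24.9 TPM, 22.0, 20.6 and 20.1 TPM and 19.4, 18.2 and 15.8 TPM in wild type, the Ndufa4l3-miR147 knockout and the Ndufa4 knockout. It fell in the Ndufa4 knockout (difference -0.53 ± 0.09, adjusted p = 0.0083), with no overlap between the 3 groups. Sc5d, the desaturase just before it, was at 30.7, 28.4 and 29.1 TPM, 26.9, 22.3 and 24.5 TPM and 21.8, 19.2 and 17.8 TPM in the same order. Its fall (difference -0.56 ± 0.09, adjusted p = 0.0091) was lost only without wild-type replicate 1 (difference -0.53, adjusted p just over 0.05), the highest over its 20 alternatives.

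Msmo1 and Nsdhl, which remove the methyl groups of the sterol ring, were lower with less margin. Msmo1 was at 72.3, 65.1 and 68.1 TPM in wild type, 65.5, 57.7 and 55.9 TPM in Ndufa4l3-miR147 knockout cells and 59.2, 52.2 and 48.5 TPM in the Ndufa4 knockout (difference -0.36 ± 0.09, limma adjusted p = 0.039). Nsdhl was at 23.9, 20.0 and 22.2 TPM, 18.2, 16.3 and 18.2 TPM and 16.2, 16.8 and 15.2 TPM in the same order, with both knockouts below wild type and overlapping each other (difference -0.43 ± 0.08 in the Ndufa4 knockout, adjusted p = 0.018). Msmo1 lost its call without any of the wild-type libraries (adjusted p 0.092 to 0.14), replicates 2 or 3 of the Ndufa4l3-miR147 knockout or replicate 2 of the Ndufa4 knockout (0.058 to 0.071). Nsdhl lost it without wild-type replicate 1 or 3 (adjusted p = 0.082 and 0.073). Hsd17b7, which acts with both, was at 5.21, 5.32 and 5.70 TPM in wild type and 4.60, 3.81 and 2.72 TPM in the Ndufa4 knockout, with replicate 3 lowest (difference -0.46 ± 0.15, adjusted p = 0.094). Its difference was -0.30 without that library (adjusted p = 0.11). Without Ndufa4 knockout replicate 1 it was -0.60 and was called (adjusted p = 0.038, and 0.24 at most over its alternatives). Ebp, the sterol isomerase, lay between 54.3 and 60.9 TPM in all 9 libraries, with differences of -0.03 ± 0.05 and -0.08 ± 0.05 in the Ndufa4l3-miR147 and Ndufa4 knockouts. Tm7sf2, a sterol reductase, was within 15.8 to 15.9 TPM in wild type and spread from 11.9 to 18.4 TPM in the Ndufa4 knockout, where replicate 3 was the highest (difference -0.08 ± 0.14, adjusted p = 0.75).

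Among the SREBP genes and their control, Srebf2, Srebf1 and Insig1 were lower in the Ndufa4 knockout and Scap, Insig2, Mbtps1 and Mbtps2 were not called. Srebf2, whose factor acts mainly on sterol genes, was at 59.8, 58.9 and 58.4 TPM in wild type, 53.0, 51.1 and 54.0 TPM in Ndufa4l3-miR147 knockout cells and 43.7, 46.6 and 39.9 TPM in the Ndufa4 knockout. The 3 groups were separate, and the fall of -0.44 ± 0.06 in the Ndufa4 knockout (limma adjusted p = 0.0054) was called in all 20 alternatives. Insig1, both a target of SREBP and a brake on it, was at 60.7, 61.7 and 61.2 TPM, 54.1, 47.1 and 48.8 TPM and 39.8, 40.9 and 30.4 TPM in the same order, with Ndufa4 knockout replicate 3 the lowest. It fell in the Ndufa4 knockout (difference -0.72 ± 0.11, adjusted p = 0.0061), and by 0.59 without that replicate (adjusted p = 0.0011, and 0.036 at most over its 20 alternatives). Srebf1, whose factors act also on fatty acid genes, was at 56.2, 55.1 and 48.7 TPM, 46.8, 49.5 and 52.1 TPM and 34.2, 44.2 and 40.7 TPM, with the Ndufa4l3-miR147 knockout overlapping wild type. Its fall in the Ndufa4 knockout (difference -0.42 ± 0.10, adjusted p = 0.033) was lost in 11 of 20 alternatives, among them without wild-type replicates 1, 2 and 3 (adjusted p = 0.12, 0.12 and 0.059), without any Ndufa4l3-miR147 knockout library (0.053 to 0.062) and under both other scalings. The table does not separate the Srebf1 transcripts for its long and short forms.

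The other genes of SREBP control were not called. Scap was at 24.1, 23.0 and 24.2 TPM in wild type and 20.6, 22.0 and 22.6 TPM in the Ndufa4 knockout (difference -0.12 ± 0.06, limma adjusted p = 0.25). Insig2 was at 36.3, 38.3 and 31.5 TPM in wild type, 39.1, 37.1 and 27.9 TPM in Ndufa4l3-miR147 knockout cells and 29.4, 32.9 and 20.1 TPM in the Ndufa4 knockout, with replicate 3 of both knockouts lowest in its group. Mbtps1 had differences of 0.00 ± 0.08 and -0.10 ± 0.08 in the Ndufa4l3-miR147 and Ndufa4 knockouts. Mbtps2 ranged from 12.1 TPM in Ndufa4 knockout replicate 3 to 29.9 TPM in replicate 2 of the same group, which is the highest and the lowest of all 9 libraries.

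Of the 2 transport genes, Stard4, a carrier of sterols between membranes, was lower in the Ndufa4 knockout and Tmem97, a sterol-regulated membrane protein, was not called. Stard4 was at 23.0, 22.3 and 22.1 TPM in wild type, 18.7, 17.8 and 17.6 TPM in Ndufa4l3-miR147 knockout cells and 15.9, 15.8 and 9.67 TPM in the Ndufa4 knockout. The groups did not overlap, and Ndufa4 knockout replicate 3 lay far below the rest of its group. The fall (difference -0.70 ± 0.16, limma adjusted p = 0.029) was lost without wild-type replicate 1, 2 or 3 (adjusted p = 0.10, 0.098 and 0.092) or any Ndufa4l3-miR147 knockout library (0.051 to 0.055). It was kept without Ndufa4 knockout replicate 3 (adjusted p = 0.0015), and its adjusted p over 20 alternatives was 0.00051 to 0.10. Tmem97 was at 59.9, 51.5 and 51.1 TPM in wild type and 50.9, 44.5 and 48.0 TPM in the Ndufa4 knockout (difference -0.17 ± 0.08, adjusted p = 0.2).

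None of the 4 genes that supply acetyl-CoA or build fatty acids was called in either knockout. At an unadjusted p under 0.05 limma gave Acss2 and Acaca in the Ndufa4 knockout, beside 2014 of all 11133 genes lower, and 0 in the Ndufa4l3-miR147 knockout. Acss2, acetyl-CoA synthetase, was at 5.33, 4.79 and 5.05 TPM in wild type, 4.32, 4.25 and 4.41 TPM in Ndufa4l3-miR147 knockout cells and 3.97, 4.01 and 3.96 TPM in the Ndufa4 knockout, in separate groups. Its difference in the Ndufa4 knockout was -0.28 ± 0.09 (adjusted p = 0.079). Acaca, acetyl-CoA carboxylase, was at 16.6, 14.3 and 15.4 TPM in wild type and 10.5, 12.2 and 6.74 TPM in the Ndufa4 knockout (difference -0.63 ± 0.20, adjusted p = 0.081), and was called without replicate 2 of that knockout (-0.80, adjusted p = 0.042, and 0.22 at most over its alternatives). Without replicate 3 of that knockout the difference of Acaca was -0.41 (adjusted p = 0.092). Acly, ATP citrate lyase, was at 89.7, 94.2 and 90.5 TPM in wild type and 85.7, 89.5 and 63.6 TPM in the Ndufa4 knockout, where only replicate 3 lay far below. Fasn, fatty acid synthase, was the 1 gene of the 32 with a positive difference in the Ndufa4 knockout (0.06 ± 0.21), at 7.24, 4.12 and 4.40 TPM in wild type and 4.43, 4.88 and 7.04 TPM in the knockout, with a single high library in each.

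**Figure D4:**
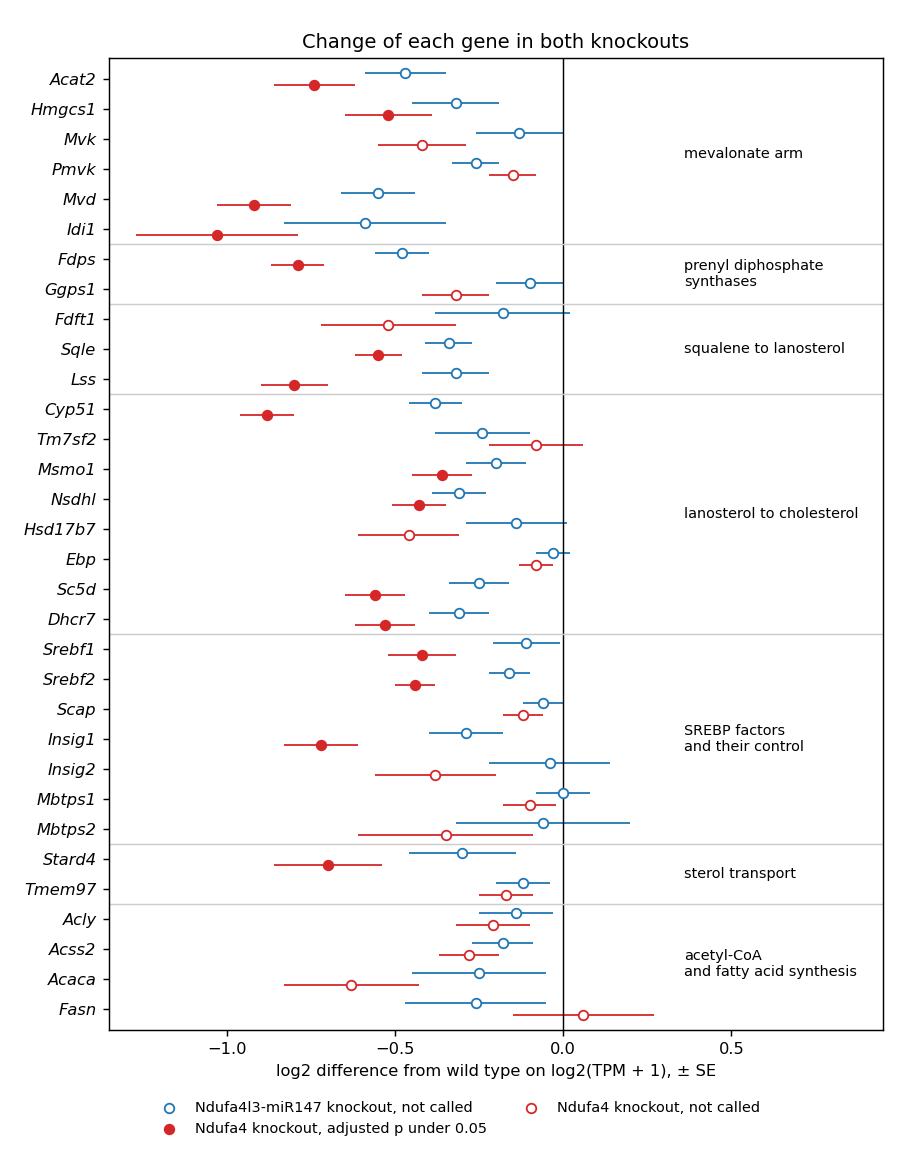
Log2 difference from wild type on log2(TPM + 1), ± SE (x axis), of 32 genes grouped by role (rows), with blue for the Ndufa4l3-miR147 knockout and red for the Ndufa4 knockout; filled points have a limma adjusted p under 0.05. The 16 filled points all belong to the Ndufa4 knockout and all lie left of 0, from -1.03 for Idi1 to -0.36 for Msmo1.

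Between the knockouts, Cyp51 and Lss were higher in the Ndufa4l3-miR147 than in the Ndufa4 knockout and none of the 32 was lower, beside a background of 2.20% of all genes called higher and 1.04% lower. At an unadjusted p under 0.05 limma gave 13 of the 32 higher and 0 lower, beside 1626 and 637 of all 11133 genes. The difference was 0.50 ± 0.08 for Cyp51 (limma adjusted p = 0.015) and 0.49 ± 0.10 for Lss (adjusted p = 0.037). The median of the 32 was 0.27, beside 0.07 over all genes, and for 14 of them all libraries of the Ndufa4l3-miR147 knockout lay above all of the Ndufa4 knockout, beside 18.3% of all genes. The count rested on single libraries: it was 7 without Ndufa4 knockout replicate 3, where Mvk, Mvd, Fdps, Srebf2 and Insig1 were also called, and 4 without its replicate 2. Over all genes 495 and 341 were called higher in these fits, against 245 with all libraries. The count was 0 without replicate 1 or 2 of the Ndufa4l3-miR147 knockout, where 46 and 52 of all genes were called higher. There the adjusted p of Cyp51 was 0.063 and 0.060 and that of Lss 0.079 and 0.12. The count was 1 without any of the other 5 libraries, with Lss at adjusted p of 0.052 to 0.15. Over all genes, 67.9% of the calls were higher as deposited and 49.3% after median-of-ratios scaling, under which 1 of the 32 was called.

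In the Ndufa4l3-miR147 knockout, too, the count depended on libraries and on the estimate of the spread. It was 7 instead of 0 without Ndufa4 knockout replicate 3, a library outside the comparison that enters through the shared spread. In that fit 0.781% of all genes were called lower, against 0.189% with all libraries. Fdps, Mvd, Sqle, Cyp51, Dhcr7, Insig1 and Stard4 were the 7, with adjusted p of 0.014 to 0.042. The count was 1 without replicate 1 of the Ndufa4 knockout, with Mvd called at an adjusted p of 0.022, and 1 without its replicate 2, with Fdps at 0.044. It was also 1 without replicate 1 of the Ndufa4l3-miR147 knockout, with Acat2 at 0.041. In the fits with 1 call here, 0.108% to 0.296% of all genes were called lower. Over 20 alternatives the adjusted p reached 0.30 for Fdps, 0.39 for Mvd, 0.44 for Sqle, 0.50 for Cyp51 and 0.69 for Acat2. It reached 0.76 for Dhcr7, 0.95 for Insig1 and 1.0 for Stard4.

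Other genes of the pathway were taken from 6 lists of related functions, of which 80 genes passed the filter. These lists, too, were chosen with earlier results of these data known. In the Ndufa4 knockout 8 of 14 SREBP-responsive fatty acid genes were lower and 0 higher (median -0.35), beside 5.76% of all genes lower and 2.83% higher. At an unadjusted p under 0.05 limma gave 11 lower and 0 higher, beside 2014 and 891 of all 11133 genes. The count was 5 when any 1 of the 3 wild-type libraries was left out, and 5 with only the libraries compared. In these fits 1.40% to 1.72% of all genes were called lower. Of the 8 genes, Acsl3 and Fabp5 (adjusted p = 0.075 for both) and Aacs (0.14) lost their call without wild-type replicate 1. Fads2, a desaturase of polyunsaturated fatty acids, was at 38.4, 36.2 and 36.1 TPM in wild type, 25.1, 22.0 and 20.5 TPM in Ndufa4l3-miR147 knockout cells and 16.8, 15.5 and 14.6 TPM in the Ndufa4 knockout, in 3 separate groups. It was lower in the Ndufa4 knockout (-1.19 ± 0.09, limma adjusted p = 0.00044) and was the only gene of the 6 lists called in the Ndufa4l3-miR147 knockout (-0.69 ± 0.09, adjusted p = 0.012). The latter call was lost without any of the 3 wild-type libraries or without replicate 2 or 3 of that knockout (adjusted p 0.068 to 0.095). Scd2, a stearoyl-CoA desaturase, was at 141, 141 and 142 TPM, 109, 91.9 and 93.6 TPM and 67.3, 66.9 and 46.0 TPM in the same order and fell in the Ndufa4 knockout (-1.24 ± 0.14, adjusted p = 0.0014).

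The accessory list holds electron carriers of the pathway's oxygenases, the sterol reductase Lbr and 0610007P14Rik, the mouse symbol of Erg28. In the Ndufa4 knockout 1 of its 8 genes was lower and 0 higher by limma, beside 5.76% of all genes lower and 2.83% higher. At an unadjusted p under 0.05 in limma, 4 were lower (Cyb5a, Cyb5b, Lbr and 0610007P14Rik) and 1 higher, beside 2014 and 891 of all 11133 genes. The gene called, Cyb5a, a cytochrome b5, was at 367, 327 and 331 TPM in wild type, 286, 256 and 247 TPM in Ndufa4l3-miR147 knockout cells and 238, 247 and 254 TPM in the Ndufa4 knockout, with both knockouts below wild type. Its difference was -0.47 ± 0.07 in the Ndufa4 knockout (limma adjusted p = 0.0055) and -0.38 ± 0.07 in the other (adjusted p = 0.068). Of 15 genes of the non-sterol isoprenoid branches 1 was lower, a share near that of all genes. It was Pggt1b, a subunit of geranylgeranyl transferase at 0.619, 1.34 and 1.21 TPM in wild type and 0.448, 0 and 0.0637 TPM in the Ndufa4 knockout. Its levels are near the filter and its call (adjusted p = 0.04) was lost in 10 of 19 alternatives, among them without each of 7 libraries. Of 15 genes for the retention and turnover of SREBP and related proteins, limma called 0 in either direction. At an unadjusted p under 0.05 limma gave 3 of them lower, a share near that of all genes. The most abundant, Aup1 and Trim21, had differences of 0.20 ± 0.09 and -0.27 ± 0.10.

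Uptake and transport genes went in both directions in the Ndufa4 knockout, with 3 of 14 lower and 1 higher, beside the 5.76% and 2.83% of all genes. At an unadjusted p under 0.05 limma gave 6 lower and 2 higher, beside 2014 and 891 of all 11133 genes. When each library was left out, 0 to 4 were lower and 0 to 2 higher, with 0 lower without wild-type replicate 1 or 3, where 1.51% and 1.72% of all genes were lower. Stard5, a sterol carrier, was lower (-0.58 ± 0.11, limma adjusted p = 0.018), as was Scarb1, the high-density lipoprotein receptor (-0.20 ± 0.04, adjusted p = 0.024), and Cd36, a receptor for oxidised lipoprotein, was higher (0.59 ± 0.14, adjusted p = 0.037). Of 14 genes of the liver X receptor (LXR) and oxysterol list 2 were lower and 3 higher, and 5 and 3 at an unadjusted p under 0.05 in limma, beside the same backgrounds. When any 1 of the wild-type libraries was left out, 0 were lower and 1 higher, beside 168 to 191 lower and 91 to 99 higher of all 11133 genes. Apoe, the lipid carrier of macrophages, was at 2952, 3035 and 2951 TPM in wild type, 2668, 2802 and 2845 TPM in Ndufa4l3-miR147 knockout cells and 4643, 5122 and 6145 TPM in the Ndufa4 knockout, where it rose (0.82 ± 0.09, adjusted p = 0.0013). Ch25h, which makes the oxysterol that blocks SREBP processing, was at 145, 139 and 141 TPM, 187, 174 and 167 TPM and 232, 180.4 and 183 TPM in the same order. It rose in the Ndufa4 knockout (0.47 ± 0.09, adjusted p = 0.017), with a difference of 0.31 ± 0.09 in the Ndufa4l3-miR147 knockout (adjusted p = 0.33). Abcg1, a cholesterol exporter, and Lpcat3, a phospholipid acyltransferase, were lower (-0.33 ± 0.06 and -0.45 ± 0.11, adjusted p = 0.012 and 0.036). Of these genes only Apoe kept its call in all its alternatives. Stard5 lost it without wild-type replicate 1 or 3, and Abcg1 and Ch25h without any of the wild-type libraries. Cd36, Scarb1 and Lpcat3 lost it without at least 5 of the 9 libraries, each of the wild-type libraries among them, with adjusted p of at most 0.13. In the Ndufa4l3-miR147 knockout the most abundant genes of the 5 lists with no call were Cyb5a and Cyb5r3 (-0.02 ± 0.05), Coq2 (0.15 ± 0.06) and Zmpste24 (-0.02 ± 0.13), Aup1 (0.15 ± 0.09) and Trim21 (-0.04 ± 0.10), Npc2 (0.06 ± 0.04) and Lipa (-0.04 ± 0.09), and Apoe (-0.10 ± 0.09) and Ch25h.

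**Figure D5:**
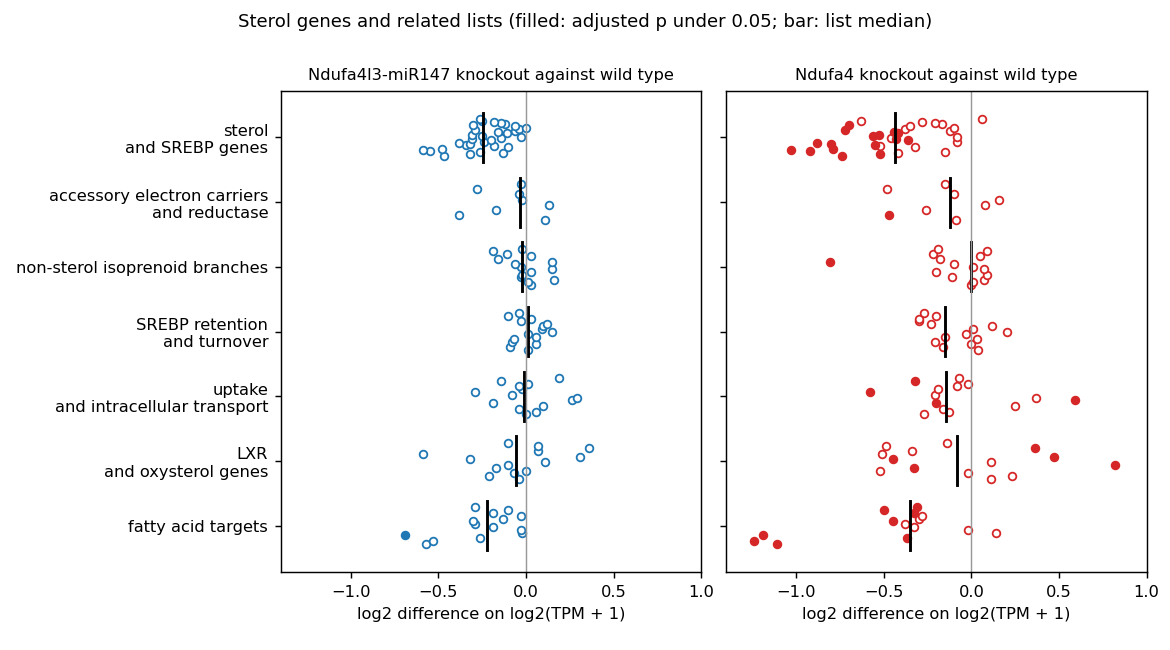
Log2 difference from wild type on log2(TPM + 1) (x axis) of the 32 sterol and SREBP genes and of 6 related lists (rows), for the Ndufa4l3-miR147 knockout (left, blue) and the Ndufa4 knockout (right, red), with each gene as a point, filled at a limma adjusted p under 0.05, and the list median as a bar. The medians of the sterol genes (-0.25 and -0.43) and of the fatty acid genes (-0.23 and -0.35) lie lowest in both panels, and the other lists' medians lie between -0.15 and 0.01.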

How the data were processed

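Polyadenylated RNA of 9 libraries, 3 per genotype, was given by the authors as 1 deposited table of TPM per gene. The submitters' processing notes name the tools kallisto, edgeR and DESeq2, without their versions or what each did, and the builds mm10 and GRCm39. The annotation, the read filters and how transcripts were combined into genes were not given in the sources used here. Library sums of TPM lay between 913474 and 921678 over the named genes. TPM keep no read depth, so no counting interval is given, and as TPM are shares, a gain in abundant genes lowers all others.

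Genes that reached 1 TPM in 3 or more libraries were kept. With limma 3.58.1 (R 4.3.3), a mean per genotype was fitted to log2(TPM + 1) of all 9 libraries, using an intensity trend, two-sided tests and Benjamini-Hochberg adjustment at 0.05 over 11133 genes. A pseudocount of 1 understates changes of low genes. The procedure was tested on simulated data. The members and lists were chosen with earlier results of these data known. Every member is named. From each related list up to 2 called genes per direction with the smallest adjusted p are named, or the 2 most abundant where none was called; of 87 listed genes 86 were found, some by an older symbol. The Hmgcs1 promoter window and the motif TCACNCCA were added after the windows were seen. Alternatives were pseudocounts of 0.5 and 0.1, no filter, a filter at 5 TPM, median-of-ratios and quantile scaling, only the libraries compared, no intensity trend, library weights, removal of each library's length and GC trend, a replicate block and leaving out each library.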

Additional observations from a re-analysis of the deposited data

How the results depend on the processing

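In the Ndufa4 knockout against wild type, 9 of the 16 genes called lower kept their call in all 20 alternatives (Acat2, Mvd, Fdps, Sqle, Lss, Cyp51, Dhcr7, Srebf2 and Insig1), and 7 lost it in some. The count was 10 with only the libraries compared, 11 without the filter, 20 with the length and GC trend removed, 23 with library weights and 9 to 18 when each library was left out. In the same order 1.40%, 2.03%, 9.24%, 16.5% and 1.51% to 8.70% of all genes tested were called lower. The median of the 32 genes stayed between -0.50 and -0.35 in all alternatives. The share of all genes called lower that kept their call in all alternatives was not counted. Between the Ndufa4l3-miR147 knockout and wild type, 0 genes were called lower, but 1 with a filter at 5 TPM, with median-of-ratios scaling or with quantile normalization, 4 with the length and GC trend removed, 7 with only the libraries compared, 13 with library weights and 0 to 7 when each library was left out. In the same order 0.245%, 0.171%, 0.216%, 0.422%, 1.25%, 2.34% and 0.0629% to 0.781% of all genes tested were called lower. The median of the 32 was -0.25, and -0.27 to -0.18 when each library was left out. Between the knockouts, 2 genes were higher in the Ndufa4l3-miR147 knockout, but 0 with only the libraries compared, 1 without the filter or with median-of-ratios scaling, 8 with the length and GC trend removed, 9 with library weights and 0 to 7 when each library was left out. In the same order 42, 157, 149, 519, 1107 and 46 to 495 of all genes tested were called higher. The median of the 32 was 0.27, but 0.17 with quantile normalization, 0.16 with library weights and 0.16 to 0.28 when each library was left out. Library weights gave the Ndufa4 knockout replicates 0.341, 3.67 and 0.101. Over all genes, calls in both directions ranged from 238 to 3045 around 956 in the Ndufa4 knockout against wild type, from 13 to 538 around 48 in the Ndufa4l3-miR147 knockout, and from 64 to 1726 around 361 between the knockouts; the fewest came from only the libraries compared or from leaving out wild-type replicate 1, and the most from library weights. With a replicate block 16 genes were called lower in the Ndufa4 knockout (15 shared with the fit without it), 0 in the Ndufa4l3-miR147 knockout, and 1 differed between the knockouts. The labels state no shared source for libraries with the same number, deviations of same-numbered libraries correlated between -0.138 and 0.179, and not every library correlated best with its own number, so the numbers were not taken as pairs. The depth of the libraries is unknown.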
